A study of Mus musculus with 64 samples.

Results

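Haloperidol and methamphetamine were compared directly, library against library, in 2 regions of the mouse forebrain. The samples were chosen by their treatment labels alone: 4 haloperidol and 4 methamphetamine libraries from the nucleus accumbens (NAc) and the same numbers from the prefrontal cortex (PFCx), which is 16 of the 64 libraries of the series. All mice were adult male C57BL/6N animals of 8 to 10 weeks, killed 2 h after 1 intraperitoneal injection. Haloperidol was given at 1 mg/kg in saline with a drop of hydrochloric acid, and methamphetamine at 2 mg/kg in saline, so the vehicle cannot be told apart from the drug. The 8 saline libraries of the same sample set (set I, 4 per tissue) served as the control, and 8 libraries of risperidone, another antipsychotic (0.5 mg/kg), entered the model to estimate the spread. RNA was isolated with TRIzol and purified further with an RNeasy Mini Kit, and ribosomal RNA was removed before sequencing. Noncoding RNAs were thus measured beside mRNAs, but the recovery of short RNAs by these steps was not tested. Each drug had a single dose and a single time. The labels do not say whether a library is 1 animal or whether the NAc and PFCx libraries share mice, so the p-values measure the spread between these libraries only.

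Haloperidol is an antipsychotic that blocks dopamine D2 receptors, which in the striatum lie on the medium spiny neurons of the indirect pathway and on dopamine terminals. Methamphetamine is a psychostimulant that releases dopamine and other monoamines from their terminals, and this dopamine acts on D1 and D2 receptors alike. Both act on the NAc, whose main neurons are medium spiny neurons, while the PFCx has glutamatergic projection neurons and a sparser dopamine input. When a neuron is stimulated, calcium, cAMP and ERK signalling activate factors such as CREB and SRF that are already present in the nucleus. These switch on the immediate early genes within minutes: transcription factors (Fos, Jun, Egr and Nr4a families), effectors at the synapse (Arc, Homer1) and inhibitors that end the signal (Dusp and Spry genes).

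CREB binds the cAMP response element (CRE), and SRF binds the CArG box. Promoters of Fosb, the protein-coding gene called in the NAc, and of 3 other early genes described below are shown for these motifs, without Arc and Egr3. Each sequence covers the 130 bases before the RefSeq start of the gene (GRCm38.p6), and capitals mark CRE half-sites (TGACG or its reverse complement CGTCA) and CArG boxes.
Fosb, chr7:19310046-19310175, minus strand: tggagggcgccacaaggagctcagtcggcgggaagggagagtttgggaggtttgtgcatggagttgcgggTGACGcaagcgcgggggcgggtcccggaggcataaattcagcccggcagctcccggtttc
Fos, chr12:85473760-85473889, plus strand: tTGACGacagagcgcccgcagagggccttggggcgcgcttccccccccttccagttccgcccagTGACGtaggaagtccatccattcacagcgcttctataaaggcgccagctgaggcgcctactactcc
Junb, chr8:84978749-84978878, minus strand: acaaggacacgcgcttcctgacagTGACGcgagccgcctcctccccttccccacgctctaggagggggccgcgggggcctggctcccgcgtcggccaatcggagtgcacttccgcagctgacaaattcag
Dusp5, chr19:53529015-53529144, plus strand: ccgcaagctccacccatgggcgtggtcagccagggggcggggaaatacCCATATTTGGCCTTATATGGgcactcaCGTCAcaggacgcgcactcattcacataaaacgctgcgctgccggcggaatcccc
Over all 32851 RefSeq promoters (250 bases before to 50 after the start, both strands), 20.8% held a half-site, 1.79% a full CRE (TGACGTCA, which contains a half-site on each strand) and 1.63% a CArG box. In these windows Fos held 2 half-sites, Fosb and Junb held 1 each, and Dusp5 held 1 beside 2 adjoining CArG boxes. The half-site was searched for after the values had been seen, and a match is a description of the letters only.

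Another group that differed between the drugs was small nucleolar RNAs (snoRNAs), which guide chemical modification of other RNAs. A large part of them came from 2 tandem arrays on chromosome 7, and 1 copy of each array is shown with Snora75, a snoRNA of another family. In the first pair, capitals mark the C box (ATGATGA) and the D box (CTGA) that define the C/D class, and in Snora75 they mark the ACA box of the H/ACA class (GRCm38).
Gm22252, a copy of 79 bases, chr7:59525899-59525977: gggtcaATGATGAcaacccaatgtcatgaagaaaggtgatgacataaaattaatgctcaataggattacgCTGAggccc
Snord116l1, a copy of 94 bases, chr7:59894620-59894713: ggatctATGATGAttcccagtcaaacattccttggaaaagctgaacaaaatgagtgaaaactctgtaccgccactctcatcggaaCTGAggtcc
Snora75, chr1:86351169-86351301: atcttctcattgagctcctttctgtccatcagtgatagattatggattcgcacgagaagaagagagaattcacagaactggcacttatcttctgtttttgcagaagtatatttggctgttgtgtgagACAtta

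Expression is given as FPKM, a level scaled to the length of the transcript and to the size of the library, which keeps no read counts. A difference is haloperidol minus methamphetamine on the log2(FPKM + 1) scale, a scale that understates the difference of genes expressed at a low level, and it is called at a limma adjusted p under 0.05. The estimated aligned sequence per library ranged from 1.52 to 3.03 gigabases in the 32 libraries of the sample set, with group medians of 2.41 for both drugs in the NAc and of 2.08 (haloperidol) and 2.29 (methamphetamine) in the PFCx. The tissue labels matched the neuron markers: the summed FPKM of 9 medium spiny neuron genes was 492 to 557 in the NAc and 57.3 to 63.6 in the PFCx of haloperidol libraries. In the PFCx, the libraries numbered 4 of all 4 groups deviated from their group means together. Without these 4 libraries 0 genes were called in the PFCx, and the Arc difference there was -0.93 (limma adjusted p = 0.256).

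Few single genes separated the drugs. In the NAc, 2 of 25787 genes tested were called (0.00776%): Fosb, which was higher after haloperidol, and Gm25845, a noncoding RNA, which was lower (0.00388% in each direction). In the PFCx, none of 37428 genes was called by limma (0%), while 2887 genes (7.71%) had an unadjusted p under 0.05. At that unadjusted level the NAc had 1985 genes (7.7%). An ordinary linear model without moderation of the variances called 1 NAc gene and 0 PFCx genes. The difference between the tissues was called for 1 of 37601 genes (0.00266%), Arc. A model with replicate number as a block called 205 genes in the NAc (0.795%), 30 of them higher (0.116%) and 175 lower (0.679%). It called 4 genes of the PFCx (0.0107%), which were Arc, Snora75, Gm24182 and Prkaca-ps1, and 4 for the tissue difference (0.0106%), which were Arc, Dusp5, Csrnp1 and Snora75. Of the 175 lower genes in the NAc, 154 were snoRNAs, and of the 30 higher genes 15 coded for proteins. When protein-coding genes alone were tested, with the block, 1 gene was called in the NAc (Fosb) and 1 in the PFCx (Arc). The other NAc calls under the block that are given below were therefore made only with all genes in the adjustment.

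Fosb, a partner in the AP-1 transcription factor, was the protein-coding gene called in the NAc. Fosb (ENSMUSG00000003545, chr7:19302721-19310045) measured 6.07, 6.50, 7.02 and 6.53 FPKM in the 4 haloperidol libraries of the NAc, 3.50, 2.60, 2.77 and 2.90 in the methamphetamine libraries and 0.95, 1.26, 1.02 and 0.86 after saline. All haloperidol libraries lay above all methamphetamine libraries, which in turn lay above all saline libraries. The means were 6.53 ± 0.389 and 2.94 ± 0.392 FPKM (SD, n = 4), a ratio of 2.22. The difference of 0.94 (SE 0.12) was called by limma with an adjusted p of 0.0132, and the exact permutation p was 0.0286, the smallest that 4 against 4 libraries allow. The call was lost on leaving out haloperidol library 2, 3 or 4 or methamphetamine library 2, 3 or 4 (limma adjusted p from 0.0636 to 0.0903), and over all 8 such omissions the difference ranged from 0.895 to 1.00. Against saline, Fosb rose after both drugs, by 1.90 after haloperidol (limma adjusted p = 1.45e-06) and by 0.96 after methamphetamine (adjusted p = 0.00322). These contrasts share the saline libraries, and 0.132% and 0.0582% of all NAc genes were called as higher in them.

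In the PFCx, Fosb did not separate the drugs. It measured 3.95, 3.12, 3.07 and 4.19 FPKM after haloperidol and 3.82, 3.66, 2.98 and 3.44 after methamphetamine, against 1.46, 2.08, 1.47 and 1.79 after saline. The drug libraries overlapped, and the difference was 0.03 (SE 0.0973, limma adjusted p = 0.977). Fosb rose against saline after each drug here too, by 0.76 (haloperidol, adjusted p = 0.024) and 0.73 (methamphetamine, adjusted p = 0.00552), where 0.00802% and 0.0748% of all PFCx genes were called as higher.

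Junb, which dimerises with Fos proteins, came next among the AP-1 genes in the NAc. Junb measured 17.6, 21.1, 19.3 and 19.8 FPKM after haloperidol and 15.2, 12.7, 11.2 and 10.1 after methamphetamine, with 6.31, 5.41, 6.30 and 6.75 after saline. The 3 groups did not overlap, in the same order as for Fosb. The difference of 0.63 (SE 0.122), a ratio of 1.58, missed the threshold (limma adjusted p = 0.26) and passed it with the replicate block (adjusted p = 0.032). Fos, the usual marker of neuronal activation, measured 9.51, 9.78, 11.6 and 11.5 FPKM after haloperidol and 7.13, 7.47, 6.61 and 5.80 after methamphetamine. Its haloperidol libraries were also the higher ones without overlap, but the difference of 0.58 (SE 0.138) was not called with or without the block (adjusted p = 0.0995 and 0.403). Against saline, Fos rose by 1.78 after haloperidol and by 1.19 after methamphetamine (adjusted p = 5.93e-06 and 0.00187).

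For Jun and Egr3, limma called the rise against saline after haloperidol but not after methamphetamine. Jun, the main dimer partner of Fos proteins, measured 6.80, 5.91, 6.68 and 5.91 FPKM after haloperidol, 4.67, 4.42, 4.34 and 4.96 after methamphetamine and 4.17, 3.93, 3.84 and 4.31 after saline in the NAc. The 3 groups of Jun did not overlap, in the same order as for Fosb and Junb. Its lowest methamphetamine library (4.34) lay just above its highest saline library (4.31). Jun rose against saline after haloperidol (0.53, limma adjusted p = 0.00242), while after methamphetamine the difference was 0.14 (adjusted p = 0.793). Egr3, a zinc finger factor induced by ERK signalling, measured 16.5, 16.2, 17.3 and 17.1 FPKM after haloperidol, 12.4, 9.41, 10.3 and 11.9 after methamphetamine and 10.2, 10.2, 8.74 and 8.46 after saline. The methamphetamine and saline libraries of Egr3 overlapped, and the haloperidol libraries lay above both. Egr3 rose against saline by 0.78 after haloperidol (adjusted p = 0.00262), with 0.20 after methamphetamine (adjusted p = 0.801). Between the drugs, Jun differed by 0.39 and Egr3 by 0.57 (adjusted p = 0.241 for each), and both passed with the block (0.0291 and 0.0273).

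Csrnp1, a nuclear protein of the immediate early class, followed: 2.07, 2.04, 2.05 and 2.73 FPKM after haloperidol against 1.57, 1.28, 1.09 and 1.48 after methamphetamine in the NAc, a difference of 0.45 (limma adjusted p = 0.384, 0.0273 with the block). Csrnp1 haloperidol library 4 stood well above the other 3 of its group. Egr4, of the same family as Egr3, measured 6.93, 7.84, 8.85 and 7.88 FPKM after haloperidol and 5.15, 4.64, 4.91 and 6.10 after methamphetamine, and Egr2 measured 3.30, 3.20, 2.71 and 4.38 against 1.78, 2.38, 2.19 and 1.79. Neither overlapped, and neither was called (adjusted p = 0.26 and 0.403). Atf3 and Jund were the remaining transcription factors without overlap, by 0.43 and 0.17, the former at less than 1 FPKM in every library.

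Other immediate early transcription factors were not separated in the NAc. Nr4a1, an orphan nuclear receptor, measured 12.6, 11.7, 12.3 and 13.5 FPKM after haloperidol and 13.2, 12.3, 10.9 and 12.5 after methamphetamine. Its libraries were intermixed, with a difference of 0.04 (SE 0.101, limma adjusted p = 0.955), although Nr4a1 rose against saline after each drug, by 1.42 and 1.39 (adjusted p = 2.46e-06 and 1.38e-05). Egr1, a zinc finger factor often used as an activity marker, measured 14.3, 16.2, 17.2 and 16.8 FPKM after haloperidol and 15.9, 16.2, 12.6 and 15.6 after methamphetamine, a difference of 0.10 (adjusted p = 0.859). Npas4, Fosl2, Nr4a2 and Nr4a3 overlapped between the drugs as well.

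All 27 listed immediate early transcription factors were tested in both tissues. In the NAc, 21 were higher and 6 lower after haloperidol, with a median difference of 0.13 beside 0.01 over all genes. The haloperidol libraries lay above all methamphetamine libraries for 10 of the 27 and below for 0, where 2.25% of all genes lay above and 2.07% below. In the PFCx, 5 were higher and 22 lower, with a median of -0.21, and the haloperidol libraries lay below all methamphetamine libraries for 4 of the 27 and above for 0 (2.34% and 2.06% of all genes). Fosb in the NAc was the single call in the list. The 4 PFCx genes were Crem, Klf2, Klf10 and Bhlhe40. Klf10, a zinc finger repressor, measured 6.70, 6.18, 6.99 and 7.22 FPKM after haloperidol and 9.63, 9.75, 8.25 and 8.66 after methamphetamine, a difference of -0.37 (limma adjusted p = 0.139). Nr4a1 also leaned this way in the PFCx, where it measured 8.67, 7.39, 6.15 and 7.87 FPKM after haloperidol and 11.7, 10.01, 7.99 and 10.2 after methamphetamine, overlapping, with a difference of -0.36 (SE 0.115, adjusted p = 0.387).

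**Figure D1:**
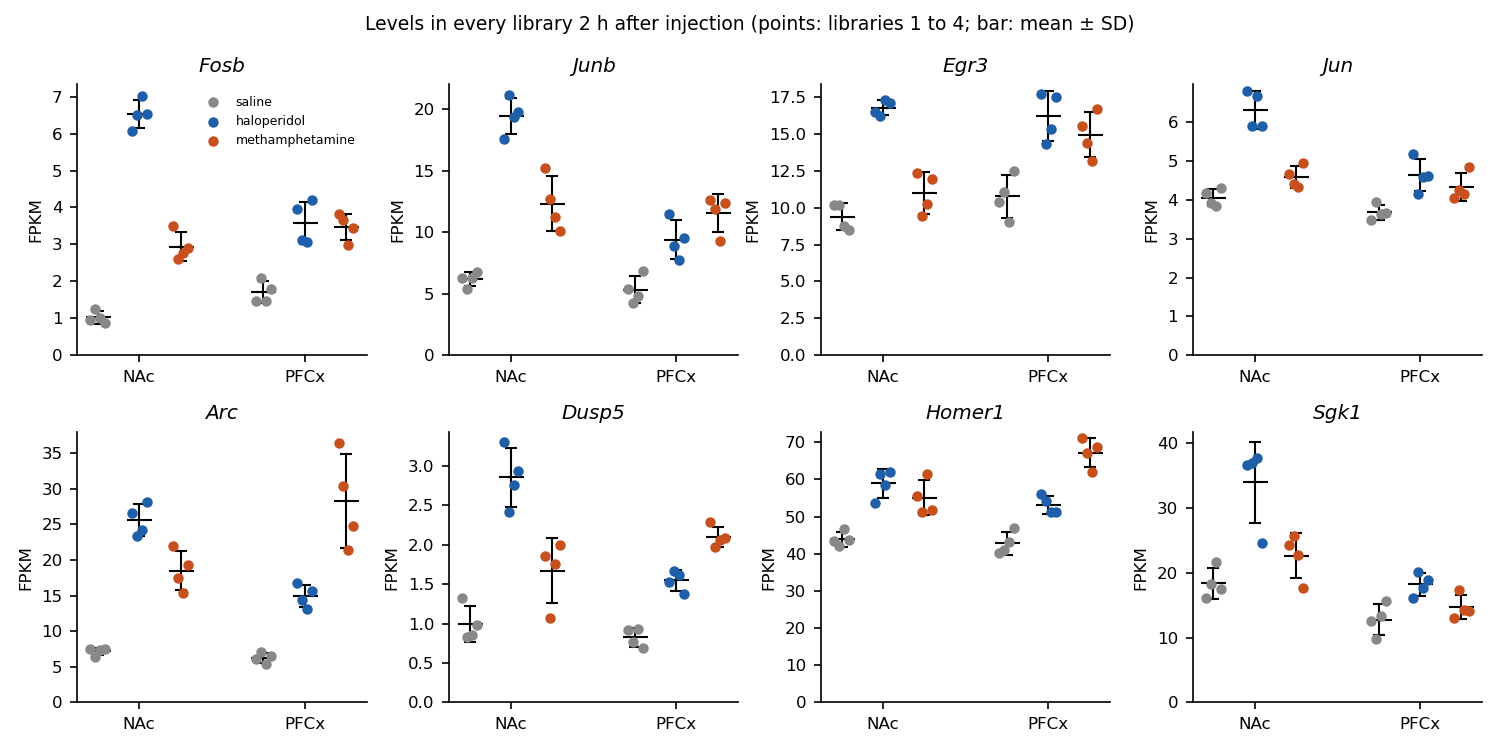
FPKM of 8 genes in every saline, haloperidol and methamphetamine library of the NAc and the PFCx, with the mean ± SD of the 4 libraries. In the NAc the haloperidol points of Fosb, Junb and Egr3 lie above all methamphetamine points, while in the PFCx the methamphetamine points of Arc, Homer1 and Dusp5 lie above all haloperidol points.

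**Figure D2:**
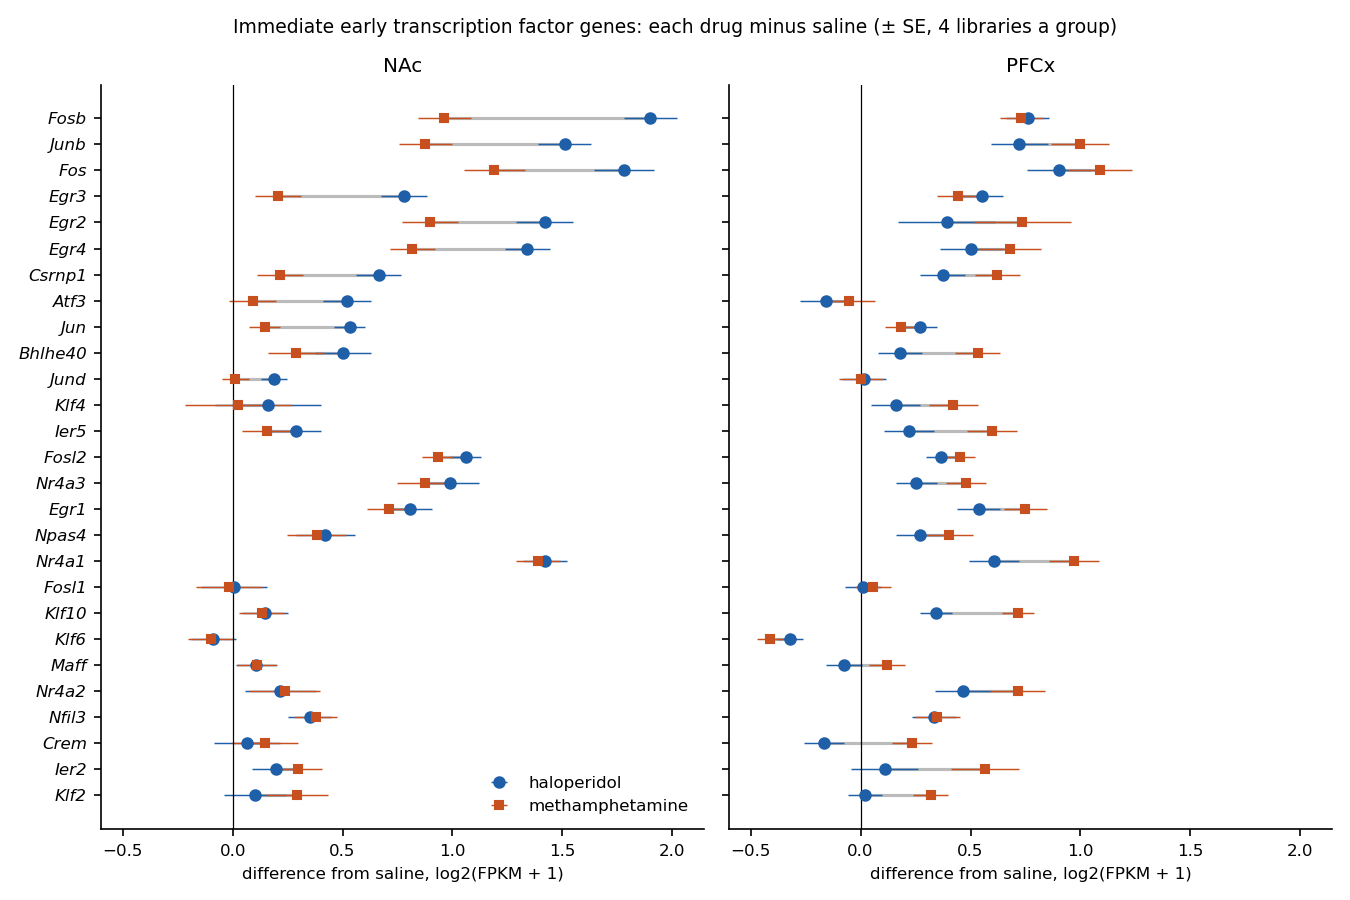
Difference of each drug from saline set I on the log2(FPKM + 1) scale, with its SE, for the 27 immediate early transcription factors in both tissues. Fosb in the NAc stands at 1.90 after haloperidol and 0.96 after methamphetamine, and both drugs share the same 4 saline libraries per tissue.

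Arc, a cytoskeletal protein of active synapses that takes part in AMPA receptor removal, went opposite ways in the 2 tissues. In the NAc, Arc (chr15:74669083-74672570) measured 26.6, 23.4, 24.2 and 28.2 FPKM after haloperidol, 21.9, 17.5, 15.3 and 19.3 after methamphetamine and 7.50, 6.44, 7.32 and 7.50 after saline. The drug groups did not overlap and haloperidol was the higher, by 0.46 (SE 0.113, limma adjusted p = 0.405). In the PFCx, Arc measured 16.8, 14.3, 13.1 and 15.6 FPKM after haloperidol, 36.4, 30.4, 21.4 and 24.7 after methamphetamine and 6.14, 7.10, 5.36 and 6.46 after saline. Here all methamphetamine libraries lay above all haloperidol libraries, and the methamphetamine mean was 1.89 times the haloperidol mean. The PFCx difference of -0.85 (SE 0.135) had an adjusted p of 0.0832, and of 0.0213 with the replicate block. Without the block it passed with a filter of at least 1 FPKM (limma adjusted p = 0.0434) and with all libraries of the tissue (0.0315). Arc rose against saline after both drugs in both tissues: by 1.70 and 1.24 for haloperidol and methamphetamine in the NAc, and by 1.13 and 1.99 in PFCx libraries (adjusted p at most 0.0207).

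Homer1, a scaffold protein of the postsynaptic density whose short form is activity-induced, separated the drugs in the PFCx. There it measured 56.1, 54.2, 51.2 and 51.1 FPKM after haloperidol and 71.3, 67.1, 61.9 and 68.7 after methamphetamine, against 40.2, 40.9, 43.3 and 47.1 after saline. The groups did not overlap, with methamphetamine the highest, and the difference of -0.33 (SE 0.071) was not called (limma adjusted p = 0.185, 0.143 with the block). Against saline, Homer1 rose in the PFCx after methamphetamine (0.64, adjusted p = 0.00172), with 0.31 after haloperidol (adjusted p = 0.33). In the NAc it measured 53.7, 61.4, 58.5 and 62.1 FPKM after haloperidol and 55.6, 51.3, 61.6 and 51.9 after methamphetamine, which overlapped. The transcript ENSMUST00000102752 of Homer1 measured 12.1, 9.86, 11.04 and 10.6 FPKM after haloperidol and 20.02, 17.9, 15.3 and 13.8 after methamphetamine in the PFCx, a difference of -0.57 without overlap (adjusted p = 0.209). The same transcript in the NAc measured 13.5, 13.4, 12.03 and 14.8 FPKM against 11.4, 11.6, 10.1 and 11.5, higher after haloperidol without overlap (0.25, adjusted p = 0.765).

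The activity-induced effectors as a list had 36 members, all tested. In the NAc 27 were higher and 9 lower after haloperidol, with a median of 0.10, and 6 did not overlap, all of them higher (2.25% of all genes): Arc, Irs2, Ier3, Inhba, Btg2 and Plk2. Ier3, a stress- and growth-factor-induced protein, measured 2.97, 2.76, 2.67 and 4.73 FPKM after haloperidol and 1.74, 1.94, 1.45 and 1.96 after methamphetamine, beside 1.87, 1.89, 1.38 and 1.54 after saline. The Ier3 difference of 0.61 (SE 0.126) had a limma adjusted p of 0.297, and of 0.0298 with the block. Irs2, an adaptor of the insulin receptor, measured 13.0, 12.3, 15.3 and 12.5 FPKM after haloperidol and 10.1, 9.33, 9.92 and 10.03 after methamphetamine, a difference of 0.39 that was not called with or without the block (adjusted p = 0.0621 and 0.297). Inhba, a subunit of activin, measured 6.65, 4.55, 5.50 and 7.83 FPKM against 3.89, 4.13, 3.70 and 4.49. Its haloperidol libraries were spread more widely than its methamphetamine libraries.

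In the PFCx, 24 of the 36 effectors were lower and 12 higher after haloperidol, with a median of -0.05. The libraries did not overlap for 5 lower members (Arc, Homer1, Sik1, Trib1 and Adamts1) and 1 higher member (Pmepa1), beside 2.34% and 2.06% of all genes. Sik1, a kinase that restrains CREB coactivators, measured 1.58, 1.61, 1.56 and 1.46 FPKM after haloperidol and 2.28, 2.72, 1.99 and 1.98 after methamphetamine. Adamts1, a secreted protease, measured 0.91, 1.08, 1.12 and 0.92 FPKM against 1.86, 1.53, 1.92 and 2.37, a difference of -0.53 (limma adjusted p = 0.163). Both were at a low level, and neither was called.

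Dusp5, a nuclear phosphatase that inactivates ERK, reversed its order between the tissues as Arc did. In the NAc, Dusp5 (chr19:53529109-53542431 in the files' annotation) measured 3.30, 2.42, 2.76 and 2.94 FPKM after haloperidol, 1.86, 1.07, 1.75 and 2.00 after methamphetamine and 1.33, 0.83, 0.86 and 0.98 after saline. Haloperidol was the higher without overlap, by 0.54 (SE 0.128, limma adjusted p = 0.403, 0.0488 with the block). In the PFCx it measured 1.53, 1.67, 1.62 and 1.37 FPKM after haloperidol and 2.28, 1.97, 2.06 and 2.09 after methamphetamine. Methamphetamine was the higher there, again without overlap, and the difference was -0.28 (SE 0.064, adjusted p = 0.195). Against saline, Dusp5 rose after haloperidol in both tissues (0.95 and 0.48, adjusted p = 0.00285 and 0.025) and after methamphetamine in the PFCx (0.77, adjusted p = 0.000105), with 0.41 in the NAc (adjusted p = 0.593).

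Among the 16 feedback inhibitors of the ERK pathway, the NAc had 8 higher and 8 lower, with a median of -0.000439, and the PFCx had 2 higher and 14 lower, with a median of -0.08. Dusp1, a phosphatase of several MAP kinases, was the other member without overlap in the NAc: 7.62, 7.51, 7.62 and 8.44 FPKM after haloperidol against 5.90, 6.72, 4.24 and 5.91 after methamphetamine (0.41, limma adjusted p = 0.403). In the NAc 2 of 16 thus lay above, beside 2.25% of all genes. In the PFCx, Dusp4, Dusp5, Dusp6 and Spry4 lay below without overlap, 4 of 16 beside 2.34% of all genes. Dusp6, a cytoplasmic ERK phosphatase, measured 10.05, 9.18, 10.04 and 9.90 FPKM after haloperidol and 12.8, 12.9, 12.6 and 11.1 after methamphetamine there, a difference of -0.31 (adjusted p = 0.215). Spry4, an inhibitor of receptor tyrosine kinase signalling, measured 1.23, 1.21, 1.12 and 1.59 FPKM against 2.27, 2.12, 2.12 and 1.73 (-0.42, adjusted p = 0.16). No ERK inhibitor was called in either tissue.

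The test of the difference between the tissues asks whether haloperidol minus methamphetamine is the same in the NAc and the PFCx. Arc was called, with 1.31 (SE 0.179, limma adjusted p = 0.00308): its NAc difference was 0.46 and its PFCx difference -0.85. Fosb and Dusp5 came next and missed the threshold, with 0.91 (SE 0.154) and 0.82 (SE 0.142) at an adjusted p of 0.051 each. With the block Dusp5 passed (0.0298) and Fosb did not (0.0537). Fosb and Dusp5 each passed in 8 of 29 alternatives, Fosb among others with all libraries (0.00939) and with protein-coding genes only (0.021). Without the PFCx libraries numbered 4, Arc stayed called at 1.38 (0.0291). Junb stood at 0.91 (adjusted p = 0.198). Csrnp1 stood at 0.70 (0.237, and 0.0298 with the block): in the PFCx it measured 1.77, 1.85, 1.63 and 1.77 FPKM after haloperidol and 2.68, 2.59, 1.69 and 2.22 after methamphetamine, lower after haloperidol but overlapping. Irs2 stood at 0.50 (0.254). Snora75 stood at 1.90 (0.198, and 0.00337 with the block). In the NAc Snora75 was near the floor, at most 0.737 FPKM after haloperidol and 0.00015 after methamphetamine. Its difference between tissues thus rests mainly on the PFCx values. The other genes among the 10 with the lowest adjusted p were Gm1980, 2900042K21Rik and Calhm2, a member of the calcium homeostasis modulator channel family, at 0.48 (0.198). Over the lists, 25 of the 27 immediate early transcription factors had a positive difference between tissues, with a median of 0.36 beside -0.00192 over all genes, as did 26 of the 36 effectors (0.13) and 11 of the 16 ERK inhibitors (0.12). Apart from Arc, none of these members was called by limma.

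**Figure D3:**
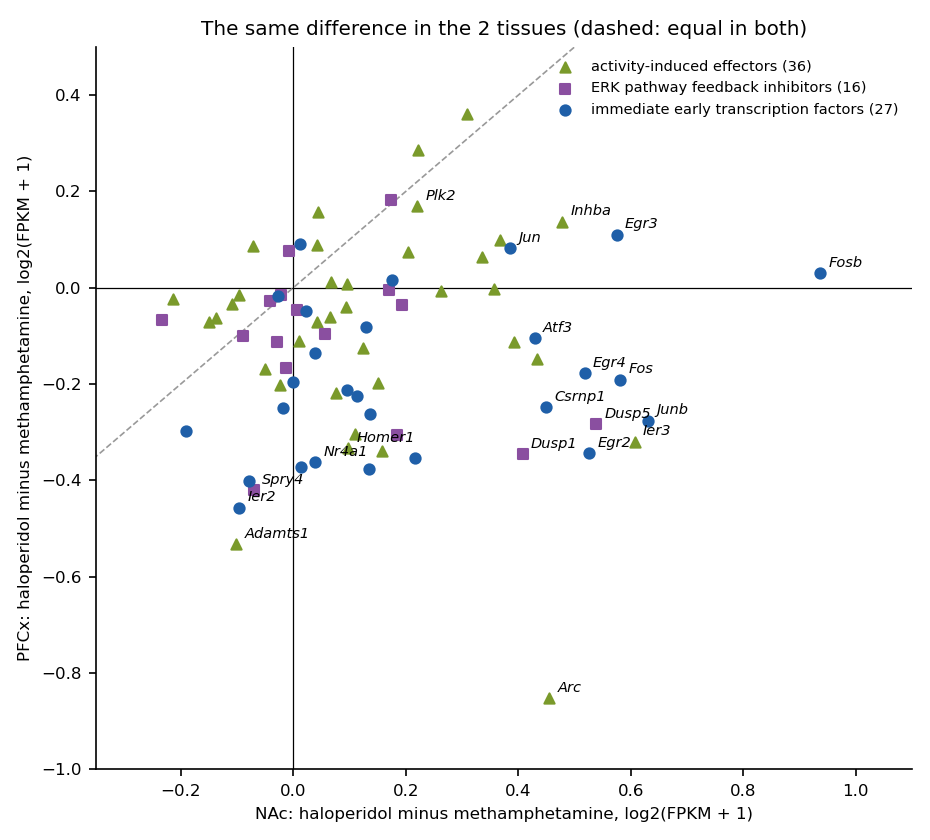
Haloperidol minus methamphetamine on the log2(FPKM + 1) scale in the NAc (horizontal) and the PFCx (vertical) for the 27 immediate early transcription factors, 36 effectors and 16 ERK pathway inhibitors, with a dashed line of equal differences. Arc lies at 0.46 and -0.85, and 25 of the 27 transcription factors lie on the side of the line where the NAc difference is the greater.

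Glucocorticoid-responsive genes were examined because a corticosterone response to injection or drug can reach the brain. Of 26 listed, 25 were tested in the NAc, 18 higher and 7 lower after haloperidol (median 0.12), and 26 in the PFCx, 19 higher and 7 lower (median 0.08), with no call by limma in either. Beside these counts, 8 members in the NAc (all higher) and 4 in the PFCx (3 higher, 1 lower) had an unadjusted p under 0.05. Of all genes, 7.7% (NAc) and 7.71% (PFCx) were at that level. Sgk1, a serum- and glucocorticoid-regulated kinase, measured 36.6, 36.9, 37.6 and 24.6 FPKM after haloperidol, 24.3, 25.6, 22.8 and 17.7 after methamphetamine and 16.1, 18.2, 21.6 and 17.6 after saline in the NAc. Library 4 was the lowest of both drug groups, the drug groups overlapped by that library, and haloperidol was higher within each of the 4 numbers. The Sgk1 difference of 0.56 (SE 0.162) had an adjusted p of 0.432, and of 0.0488 with the block. In the PFCx Sgk1 measured 16.1, 20.1, 17.6 and 18.9 FPKM against 13.0, 17.3, 14.3 and 14.1, also higher within each number, by 0.30 (adjusted p = 0.584).

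Nfkbia, the inhibitor of NF-kappaB, separated the drugs in the NAc without a call: 3.39, 3.86, 4.15 and 3.52 FPKM after haloperidol against 2.55, 2.60, 2.44 and 2.69 after methamphetamine (0.40, limma adjusted p = 0.405). Klf9, a glucocorticoid-induced transcription factor, did so by 0.15. Fkbp5, a chaperone of the glucocorticoid receptor, measured 6.41, 6.89, 7.44 and 6.96 FPKM against 6.68, 5.94, 6.84 and 5.68 in the NAc, which overlapped, and it overlapped in the PFCx as well (differences 0.12 and 0.18). No member of this list was below without overlap in either tissue. Above without overlap were 3 of 25 in the NAc, beside 2.25% of all genes, and 0 of 26 in the PFCx.

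Body temperature can be moved by both drugs, and heat shock and cold-induced genes were listed for that reason. None of the 22 heat shock genes was called by limma in either tissue, with 0 at an unadjusted p under 0.05 in the NAc and 3 in the PFCx. Medians were -0.06 and -0.02. The inducible chaperones Hspa1a and Hspa1b stayed between 0.56 and 1.11 FPKM in all 16 drug libraries, and the groups overlapped. Cirbp, an RNA-binding protein induced by cold, measured 19.3, 17.4, 16.7 and 18.3 FPKM after haloperidol and 11.1, 14.2, 12.1 and 15.5 after methamphetamine in the PFCx. Its haloperidol libraries were the higher without overlap, by 0.42 (SE 0.0942, adjusted p = 0.19). The NAc libraries of Cirbp overlapped (0.32). Rbm3, its close relative, overlapped in both tissues, by 0.07 (NAc) and -0.07 (PFCx).

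Splicing regulators and clock genes gave single genes without a call. Tra2a, a splicing activator, measured 9.89, 8.85, 9.48 and 9.77 FPKM after haloperidol and 12.5, 11.9, 12.9 and 11.8 after methamphetamine in the NAc (-0.34, limma adjusted p = 0.405), without overlap. Clk4, a kinase of SR proteins, was lower after haloperidol without overlap in both tissues, with differences of -0.30 and -0.24, as was Clk1 in the PFCx (-0.21). Of the 17 genes of this list, 8 were higher and 9 lower in NAc libraries, with 10 higher and 7 lower in the PFCx. In each tissue 2 of the 17 lay below without overlap, beside 2.07% (NAc) and 2.34% (PFCx) of all genes. Of the 17 clock genes, 9 were higher and 8 lower in each tissue. In the PFCx the clock-controlled factors Dbp and Tef and the repressor Bhlhe41 were higher after haloperidol without overlap, by 0.20, 0.18 and 0.15, while the repressor Bhlhe40 was lower without overlap (-0.35). These are 3 of 17 above and 1 of 17 below, beside 2.06% and 2.34% of all genes, and none was called.

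Genes of dopamine and cAMP signalling themselves were little separated. Drd1 measured 27.3, 28.2, 33.2 and 30.1 FPKM after haloperidol and 26.3, 29.5, 30.5 and 26.9 after methamphetamine in the NAc, and Drd2 measured 11.9, 12.2, 15.1 and 13.5 against 12.6, 15.0, 14.5 and 11.1. Both receptors overlapped, with differences of 0.07 and -0.01. Of 44 listed genes, 42 were tested in the NAc (27 higher, 15 lower, median 0.04) and 43 in the PFCx (26 higher, 17 lower, median 0.04). In the NAc no member was without overlap. In the PFCx, Prkar1b, a regulatory subunit of protein kinase A, and Pde2a, a cyclic nucleotide phosphodiesterase, were above by 0.19 and 0.12. Pde10a, a phosphodiesterase of medium spiny neurons, was below (-0.29). These are 2 of 43 above and 1 of 43 below, near the 2.06% and 2.34% of all genes. No member was called.

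Neuropeptide precursors were higher after haloperidol for 14 of 18 in the NAc and 9 of 18 in the PFCx, none called by limma. At an unadjusted p under 0.05 there were 3 in the NAc (2 higher, 1 lower) and 0 in the PFCx, beside 7.7% and 7.71% of all genes. Nts, the precursor of neurotensin, measured 4.74, 6.22, 7.04 and 5.93 FPKM after haloperidol, 4.08, 4.64, 4.30 and 4.85 after methamphetamine and 2.48, 3.12, 3.801 and 2.64 after saline in the NAc. Both drug groups lay above all saline libraries and overlapped each other by 1 haloperidol library. Nts rose against saline after haloperidol (0.80, adjusted p = 0.0214), with 0.46 after methamphetamine (adjusted p = 0.57), and the difference between the drugs was 0.35 (adjusted p = 0.563). Penk, the enkephalin precursor of indirect-pathway neurons, measured 223.9, 195.8, 261.1 and 247.8 FPKM against 219.2, 221.2, 233 and 196, which overlapped.

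**Figure D4:**
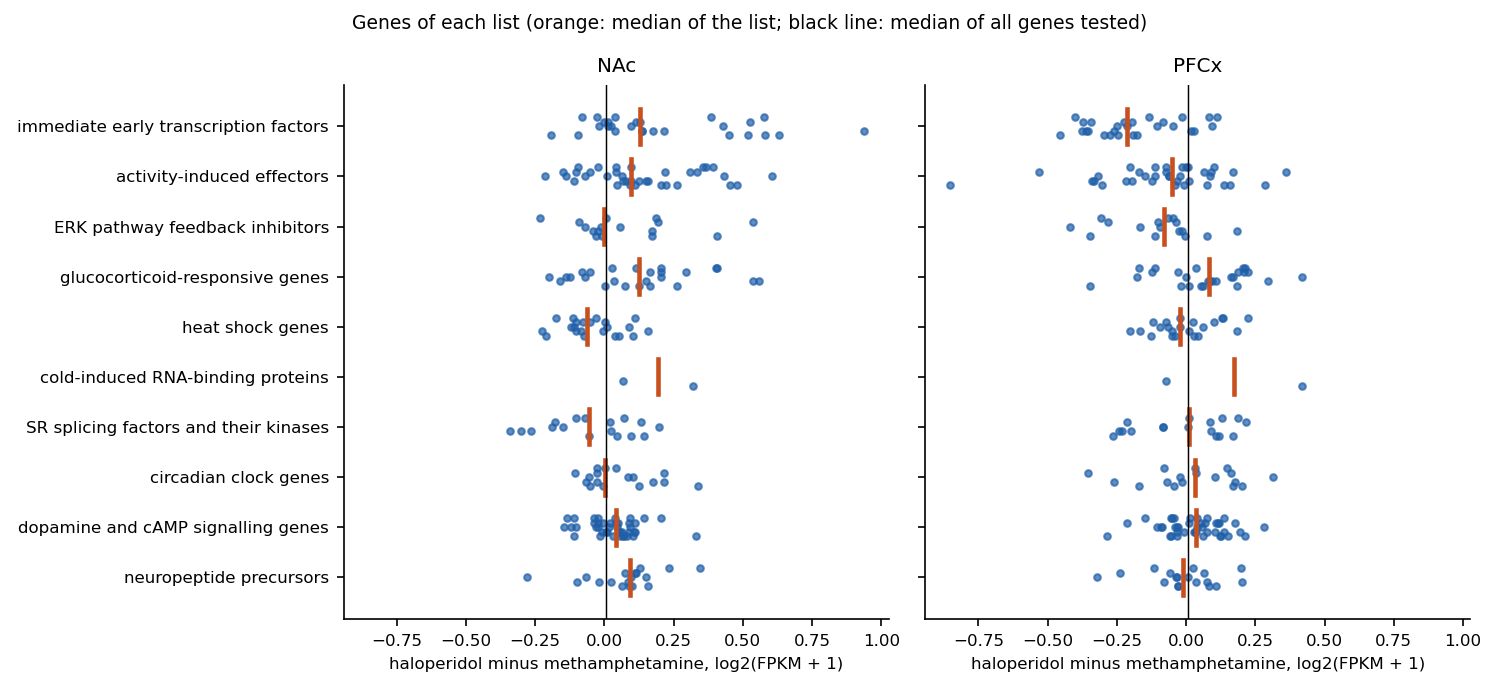
Haloperidol minus methamphetamine on the log2(FPKM + 1) scale for every tested member of the 10 gene lists, in the NAc and the PFCx, with the list median in orange and the median of all genes in black. The immediate early transcription factors have a median of 0.13 (NAc) and -0.21 (PFCx).

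The snoRNAs as a class were lower after haloperidol than after methamphetamine in both tissues. This set and its parts were chosen after the values had been seen, so they carry no test. In the NAc, 535 of 671 snoRNA genes were lower (median -0.44), and for 159 of them (23.7%, against 2.07% of all genes) all haloperidol libraries lay below all methamphetamine libraries. In the PFCx, 702 of 928 were lower (median -0.26), 161 of them without overlap (17.3%, against 2.34%). With the filter of 0.1 FPKM and all 4 groups in the model, no snoRNA was called singly without the block. The mean log2(FPKM + 1) over snoRNAs ranged from 2.97 to 3.58 in haloperidol and from 3.62 to 4.01 in methamphetamine libraries of the NAc, and from 2.72 to 2.75 and from 3.00 to 3.18 in the PFCx. Saline libraries spanned both ranges in part, from 2.92 to 3.76 (NAc) and from 2.70 to 3.25 (PFCx). Protein-coding genes had mean differences of 0.02 in each tissue. Other classes of small RNA were lower too. Small nuclear RNAs (snRNAs) had mean differences of -0.10 (NAc) and -0.17 (PFCx), and small Cajal body RNAs (scaRNAs) of -0.19 in each tissue. In the PFCx, 534 of 810 snRNAs were lower and 86 lay below without overlap (10.6%), as did 5 of 37 scaRNAs (13.5%) and 57 of 1281 microRNA genes (4.45%). In the NAc the shares below without overlap were 2.33% of 386 snRNAs, 3.33% of 30 scaRNAs and 1.24% of 724 microRNA genes. The difference between snoRNAs and these classes was not tested. Whether the recovery of such short RNAs differed between the libraries was not tested either.

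The chromosome 7 arrays hold 210 snoRNA genes between positions 59342226 and 59980945, mostly 130 copies of 79 bases and 68 copies of 94 bases, of the kind of the Gm22252 and Snord116l1 sequences above. The copies are near-identical, so reads cannot be assigned to 1 of them and the copies are not independent measurements. In the NAc, 206 of 208 tested copies were lower after haloperidol (median -1.24), with 130 of 208 without overlap (62.5%) and 135 called with the block. Their mean log2(FPKM + 1) was 4.31, 5.58, 5.14 and 4.85 in the haloperidol libraries, 5.90, 6.32, 6.24 and 5.90 in the methamphetamine libraries and 4.46, 5.39, 6.06 and 5.27 after saline. All methamphetamine libraries lay above all haloperidol libraries, while the saline libraries reached into both groups. Haloperidol was lower within each replicate number, with differences of -1.59, -0.74, -1.09 and -1.05. The summed FPKM of the arrays was 2.34 times as high after methamphetamine.

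In the PFCx, 208 of 210 copies were lower after haloperidol (median -0.84), 81 without overlap (38.6%) and 0 called with the block. Their mean log2(FPKM + 1) was 5.25, 5.22, 5.25 and 4.84 after haloperidol, 6.40, 5.85, 6.13 and 5.41 after methamphetamine and 6.58, 5.17, 5.31 and 5.38 after saline. With the arrays pooled, the drug groups did not overlap each other. The saline libraries overlapped both drug groups, and saline library 1 was the highest of all. For the copies of 79 bases alone the drug groups did not overlap either, at 5.05 to 5.31 (haloperidol) and 5.82 to 6.61 (methamphetamine). The copies of 94 bases were low in library 4 of every group in the PFCx, and their drug groups overlapped. Their methamphetamine library 4, at 4.43, lay below haloperidol libraries 1 to 3, the lowest of them at 5.5. Within each replicate number haloperidol was still the lower for these copies, with differences from -0.934 to -0.381. Snhg14, the long host transcript of the arrays, measured 305.2, 331.5, 490.8 and 321 FPKM after haloperidol and 376.3, 384.5, 505.3 and 360.1 after methamphetamine in the NAc, which overlapped (-0.18, limma adjusted p = 0.85), and the neighbouring genes Snrpn and Ube3a overlapped in both tissues. Outside the arrays, 329 of 463 snoRNAs were lower in the NAc (median -0.24) and 494 of 718 in the PFCx (median -0.12), with 6.26% and 11.1% below without overlap.

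Among single small RNAs, Snora75 measured 4.88, 3.24, 2.89 and 4.52 FPKM after haloperidol, 17.8, 12.1, 11.96 and 17.1 after methamphetamine and 4.42, 2.36, 5.04 and 7.62 after saline in the PFCx. Methamphetamine lay far above both other groups. The difference of -1.69 (SE 0.277) had a limma adjusted p of 0.0931, and of 0.00957 with the block. The Snora75 difference also passed with a filter of at least 1 FPKM (0.0457) and with haloperidol and methamphetamine libraries only (0.0348). Rny1, a Y RNA, was lower after haloperidol without overlap in both tissues, with differences of -0.88 (NAc) and -0.61 (PFCx) at an adjusted p of 0.473 (0.0388 with the block) and 0.185. Gm25845, annotated as a miscellaneous RNA, measured 1.22, 1.74, 1.08 and 1.14 FPKM after haloperidol, 3.56, 3.01, 3.57 and 2.89 after methamphetamine and 2.22, 2.21, 2.68 and 2.202 after saline in the NAc. Its 3 groups did not overlap, with saline between the drugs. The difference of -0.90 (SE 0.0958) was called (adjusted p = 0.00264), and in the PFCx the groups overlapped (-0.04).

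**Figure D5:**
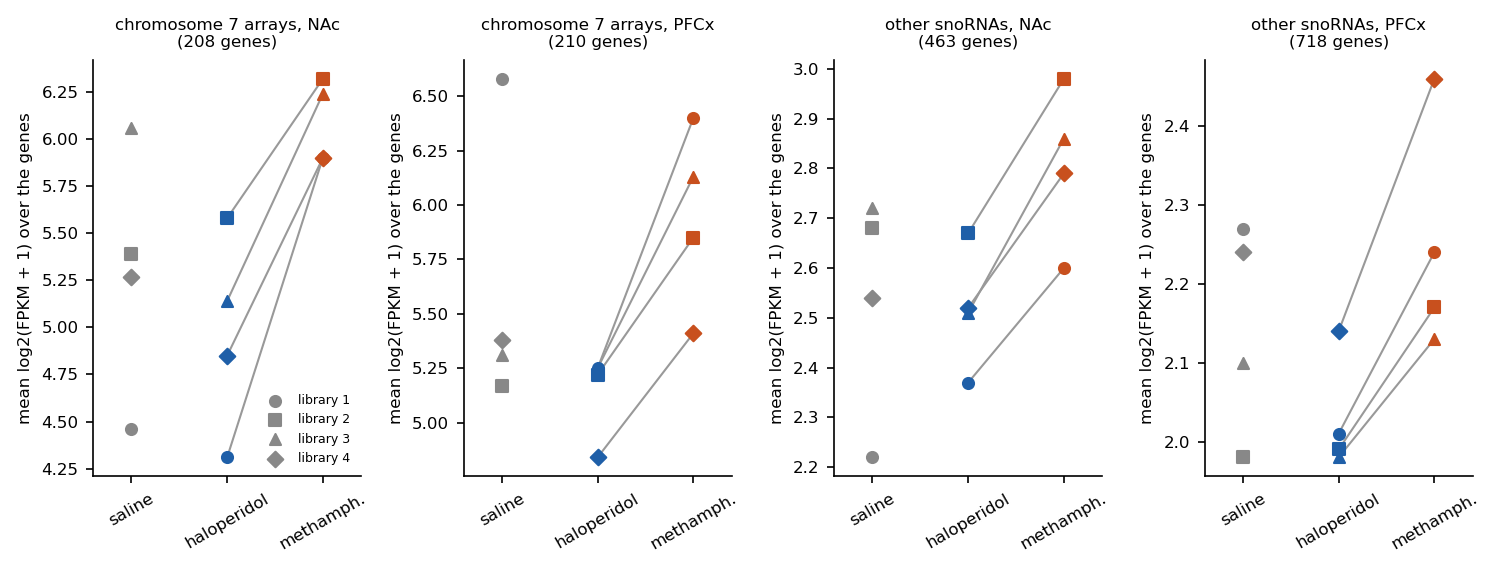
Mean log2(FPKM + 1) of the snoRNAs of the chromosome 7 arrays (208 genes in the NAc, 210 in the PFCx) and of all other snoRNAs (463 and 718) in each library, with lines joining haloperidol and methamphetamine libraries of the same number. Every line ends higher at methamphetamine than at haloperidol, by 0.74 to 1.59 for the arrays in the NAc.

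Single transcripts added few results, and isoforms of 1 gene share reads, so their values are estimates. In the NAc, 3 of 66826 transcripts were called, all lower after haloperidol (0.00449%): the one transcript of Gm25845, ENSMUST00000144463 of Tbrg4 and ENSMUST00000181837 of 1700113A16Rik. The Tbrg4 transcript was listed at or near 0 in every haloperidol library and at 1.03, 1.00, 0.78 and 0.60 FPKM after methamphetamine (limma adjusted p = 0.0153). Its saline mean was 0.0081 FPKM, and the methamphetamine libraries alone carried it past the filter of 0.1 FPKM. Values at or near 0 also lower its estimated spread, so its call is no independent support. The 1700113A16Rik transcript, an antisense RNA, measured 1.40, 0.89, 1.19 and 0.72 FPKM after haloperidol and 3.42, 3.18, 3.29 and 2.97 after methamphetamine (-1.05, adjusted p = 0.0435). All 3 calls were lost with the block. With all libraries of the tissue in the model 4 transcripts were called, all higher and none of them among these 3, and with haloperidol and methamphetamine libraries only 3 were called, 2 of them higher and again none shared. In the PFCx none of 85536 transcripts was called by limma, with 5420 at an unadjusted p under 0.05 (6.34%) and 0 with the block. The nearest was ENSMUST00000161410 of Wars, a tryptophanyl-tRNA synthetase, at 4.69, 5.09, 4.09 and 5.73 FPKM after haloperidol and 0.91, 0.02, 0.49 and 0.00 after methamphetamine (2.17, adjusted p = 0.0592). Between the tissues, none of 87350 transcripts was called by limma, with 3918 at an unadjusted p under 0.05 (4.49%) and 1 with the block (0.00114%). No gene had transcripts called in opposite directions.

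Markers of other cells were checked beside these results, since in bulk tissue fewer cells of a type and less RNA per cell cannot be told apart. No marker gene was called in either tissue. In the NAc, 7 of 8 cortical projection neuron markers were higher after haloperidol (median 0.17), with a summed FPKM of 67.9 to 88.9 against 43.3 to 81.0 after methamphetamine, and none of the 8 was at 0. Of the NAc oligodendrocyte markers 7 of 8 were higher (median 0.11), and of the endothelial markers 6 of 7 were lower (median -0.05). In the PFCx, 8 of 8 oligodendrocyte markers were higher after haloperidol (median 0.14), with sums of 152 to 212 against 132 to 183 FPKM. All 5 blood markers were higher there (median 0.16), with overlapping sums of 86.6 to 104 against 68.5 to 127 FPKM. Without the PFCx libraries numbered 4 these medians were 0.08 (7 of 8) and 0.06 (5 of 5). The PFCx also had 7 of 8 cortical projection neuron markers (median 0.10) and 6 of 7 microglia markers (median 0.07) higher after haloperidol. The part of these shifts in the results was not tested.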

How the data were processed

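RNA was ribo-depleted, libraries were made with an Ion Total RNA-seq kit, and reads were aligned with TopHat2 2.0.1 and Tmap to GRCm38. The authors deposited FPKM values per annotated Ensembl transcript from Cufflinks 2.2.1, 1 table per library. These values keep no read counts, so no counting interval could be given. The deposited Cufflinks coverage (estimated reads per base, the authors' values) times transcript length gave the aligned gigabases per library. Haloperidol and methamphetamine are in the sample set of saline set I. The members and the gene lists were chosen with earlier results of these data known. Transcripts were summed per gene name. Genes and transcripts with a mean of at least 0.1 FPKM over the 16 libraries of the tissue (haloperidol, methamphetamine, risperidone, saline set I) were fitted as log2(FPKM + 1) in 1 limma 3.58.1 model of 4 groups (R 4.3.3), Benjamini-Hochberg adjusted over everything tested. The difference between tissues used 1 model of both tissues. The NAc libraries of this sample set had 85287 to 87827 transcripts above 0, and its PFCx libraries 108878 to 110852. The other NAc libraries of the series had 107099 to 110556. The part of this lower number in the difference between tissues, and in the unlike totals of genes tested, was not tested. Single genes also had a two-sided exact permutation test of their 4 against 4 libraries (70 splits, smallest p 0.0286), and scripts ran in Python 3.11.15 with pandas 2.3.3. RNA types came from GENCODE vM21, which matched 99% of genes.

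Replicate numbers come from the sample titles. Over genes, haloperidol and methamphetamine libraries with the same number deviated together (r from 0.17 to 0.27 in the NAc and from 0.16 to 0.66 in the PFCx). The highest r with another number was always lower, from 0.019 to 0.17 in the NAc and from -0.26 to 0.23 in the PFCx. Some of these gaps were small, as for PFCx numbers 2 and 3 (0.28 against 0.23 each). The labels do not say what the numbers mark. The blocked value is given beside genes whose call it changed, and as counts for the snoRNA arrays. Over transcripts the correlations within a number were as low as 0.07. Genes were named by rule: in each tissue, called genes of at least 1 FPKM without overlap between the drugs (up to 10 each way), the 10 with the lowest adjusted p between tissues, transcripts with the 5 lowest adjusted p each way, and the defining members of the lists. Other members are named for not overlapping, and Csrnp1, Ier3, Sgk1, Rny1 and the snoRNA sets were singled out after their values were seen. Alternatives were another pseudocount, another filter or none, other libraries in the model, the ordinary test, the block, rescaling, leaving out each library and, chosen after seeing the data, protein-coding genes only and leaving out the PFCx libraries numbered 4.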

Additional observations from a re-analysis of the deposited data

Results flagged for a closer look

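Of 100 groups of 4 libraries checked over 25 named genes, 5 had 1 library far from the other 3, where chance gives about 1 in 20. Egr1 in the NAc had its lowest methamphetamine value in library 3, 12.6 FPKM, with the next at 15.6. Sgk1 in the NAc had its lowest haloperidol value in library 4, 24.5 FPKM, with the next at 36.6. The same library was the highest of its group for Csrnp1, at 2.72 FPKM with the next at 2.07, and for Ier3, at 4.73 with the next at 2.97. Snora75 in the NAc was at 0.737 FPKM in haloperidol library 3 with the next at 0.044. In the NAc it was at or near 0 in all methamphetamine libraries, while saline library 3 was at 1.69. Arc had haloperidol minus methamphetamine differences that were not the same in the NAc and the PFCx, by 1.31 on the log2(FPKM + 1) scale (limma adjusted p = 0.00308).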

How the results depend on the processing

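Over 96 single values and their alternatives (2116 in all), 2030 kept their side of the threshold, 38 lost a call and 48 gained one. Some small differences without a call changed sign, such as Fosb in the PFCx, which ranged from -0.0358 to 0.0843. Counts of called genes moved more. In the NAc (2 genes), 1 was called with a pseudocount of 0.1, the ordinary test, all libraries in the model or protein-coding genes only (with and without the block), and 205 with the replicate block. In the PFCx (0 genes), 14 were called with at least 1 FPKM, 15 with haloperidol and methamphetamine libraries only, 31 with all libraries, 4 with the replicate block and 1 with protein-coding genes and the block. Between tissues (1 gene), 3 were called with at least 1 FPKM, after rescaling or with protein-coding genes only, 0 with haloperidol and methamphetamine libraries only, and 4 with all libraries, the block, or protein-coding genes and the block. For transcripts, the NAc (3, all lower) had 8 with no filter (3 higher), 0 with the block, 4 with all libraries (all higher, 0 shared) and 3 with haloperidol and methamphetamine libraries only (2 higher, 0 shared). The PFCx (0) had 2 with at least 1 FPKM, 1 with a variance trend, 2 with haloperidol and methamphetamine libraries only, 18 with all libraries and 1 without the libraries numbered 4. Between tissues (0), 3 were called with haloperidol and methamphetamine libraries only or with all libraries, and 1 with the block. The causes were not tested. Leaving out 1 library gave 1 to 3 genes in the NAc, 0 to 3 in the PFCx and 1 to 4 between tissues, and 0 to 3, 0 to 5 and 0 to 3 transcripts. The NAc transcripts were at 0 without haloperidol library 4 or methamphetamine library 3, and at 1 (higher, not shared) without haloperidol library 3.

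Fosb in the NAc also lost its call with a pseudocount of 0.1 (limma adjusted p = 0.0981) and the ordinary test (0.0756). Gm25845 lost it with haloperidol and methamphetamine libraries only (0.0978) and with all libraries (0.0746), and kept it on leaving out each library. Arc between tissues lost it with haloperidol and methamphetamine libraries only (0.157), and kept it on leaving out each library (at most 0.0151). FPKM without counts limits low genes in particular: a difference at less than 1 FPKM is compressed by the pseudocount and rests on an unknown number of reads.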

Other observations

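Replication-dependent and other genes whose symbol starts with Hist were not among the lists. In the NAc, 53 of 61 were higher after haloperidol than after methamphetamine (median 0.19 on the log2(FPKM + 1) scale, none called by limma and 2 called with the replicate block), and in the PFCx 34 of 61 (median 0.03). H3f3b, which codes for a replacement histone, measured 24.4, 25.9, 25.8 and 28.2 FPKM after haloperidol and 19.1, 19.2, 19.4 and 20.6 after methamphetamine in the NAc, without overlap (0.40, limma adjusted p = 0.241, 0.0273 with the block). Pim3, a growth-promoting kinase, measured 8.12, 6.43, 7.24 and 7.02 FPKM against 5.69, 4.35, 5.55 and 5.32 in the NAc, and it was above without overlap in the PFCx too (0.40 and 0.30, with an adjusted p of 0.0304 with the block in the NAc). In the other direction, Ago3, an Argonaute protein of the microRNA pathway, measured 4.27, 5.90, 5.93 and 5.50 FPKM after haloperidol and 7.56, 8.23, 9.31 and 8.61 after methamphetamine in the NAc (-0.57, adjusted p = 0.0488 with the block). These 3 genes were chosen after their values were seen. Mitochondrial tRNAs were lower after haloperidol for 21 of 22 genes in the PFCx (median -0.83), 7 of them without overlap (31.8%, beside 2.34% of all genes). In the NAc they were lower for 14 of 22 (median -0.33), none without overlap.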
